A study of Mus musculus with 10 samples.

Results

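Transcripts for peroxisomes and for the first steps of ether lipid synthesis were followed in the lactating mammary gland of QSi5 and CBA mice. The group holds 34 genes, chosen by name: the ether lipid enzymes, the peroxins that build the organelle, and its transporters, oxidation enzymes and protective enzymes. Every probeset (a set of short probes that reports 1 value for a transcript) was taken whose platform annotation gives exactly 1 gene symbol equal to one of these names. This gave 54 of 22626 probesets, for 31 of the 34 genes. No such probeset was found for Agps, Pex10 or Prdx5, which are not analysed here. The list, which names Far1, was drawn up with earlier results of these arrays in view, Far1's strain difference among them. The strain differences below are therefore a description. Each is given with its standard error (SE) and with whether it was called in a fit over all tested probesets, and nothing is supported by them.

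Both strains are inbred. QSi5 mice descend from Quackenbush-Swiss animals and were bred for high fecundity, and CBA stands for the CBA/CaH strain. The inguinal mammary gland was taken at lactation day 9 from 5 mice of each strain in their first lactation, with 1 Affymetrix array per mouse. The sample titles name no treatment, and an age at collection is not given in the sources used here. Of each strain, 3 mice were measured on the MOE430 2.0 chip and 2 on the MOE430A 2.0 chip. The series record adds that the mice were force weaned, and the part of this weaning in the values was not tested. The deposited values are log2 intensities, on which a difference of 1 is a 2-fold change. Array medians ran from 4.21 to 4.30. CBA replicate 3 (MOE430A 2.0) stood apart from the other mice for many of these genes, and counts without it are given. Of 11 markers of lactating luminal epithelium (caseins, Wap, Lalba, keratins and others), 11 were tested, and their unlogged intensities summed to between 91013 and 96848 in QSi5 mice and between 86520 and 93197 in CBA mice. Hepatocyte markers, for a peroxisome-rich tissue outside the gland, summed to between 180.3 and 248.1 in QSi5 and between 143.8 and 235.9 in CBA mice over 5 tested genes.

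Peroxisomes are small organelles with a single membrane. They shorten very long and branched fatty acids by beta and alpha oxidation, destroy the hydrogen peroxide this makes, and carry out the opening steps of ether lipid synthesis. In that pathway Far1, a fatty acyl-CoA reductase on the peroxisomal membrane, makes the fatty alcohol. Gnpat attaches an acyl chain to dihydroxyacetone phosphate, and Agps exchanges that chain for the alcohol. The product is finished in the endoplasmic reticulum into plasmalogens and other ether phospholipids of membranes. In lactation the mammary epithelium makes and exports large amounts of fat.

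Of the 54 probesets, 38 (26 genes) reached the filter, an unlogged strain mean over 20 in either strain, and were tested with limma. The other 16 had unlogged means between 4.67 and 19.8, and no probeset was above it for Abcd2 (a transporter), Acox3 and Crot (of beta oxidation) or Phyh and Hacl1 (of alpha oxidation). Calls were made where the p of all 11412 tested probesets, adjusted by the Benjamini-Hochberg (BH) method, was under 0.05. Of the 38, 2 were called higher and 1 was called lower in QSi5 glands, and 35 were not called, beside 2.94% of all tested probesets called in either direction (1.44% higher and 1.51% lower). The called probesets were 2 of Far1 and that of Decr2. No overlap between the strains was seen for 6 of the 38, beside 5.14% of all tested probesets. The uncalled differences ran from -0.63 to 0.43 with SEs between 0.10 and 0.36. Of the tested probesets, 4 passed the filter through 1 strain alone, so that their passing is tied to the strain in which they were brighter. They are 1426370_at and 1426371_at of Far1 and 1448332_at of Pex19, which passed through QSi5, and 1419974_at of Scp2, which passed through CBA.

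**Figure D1:**
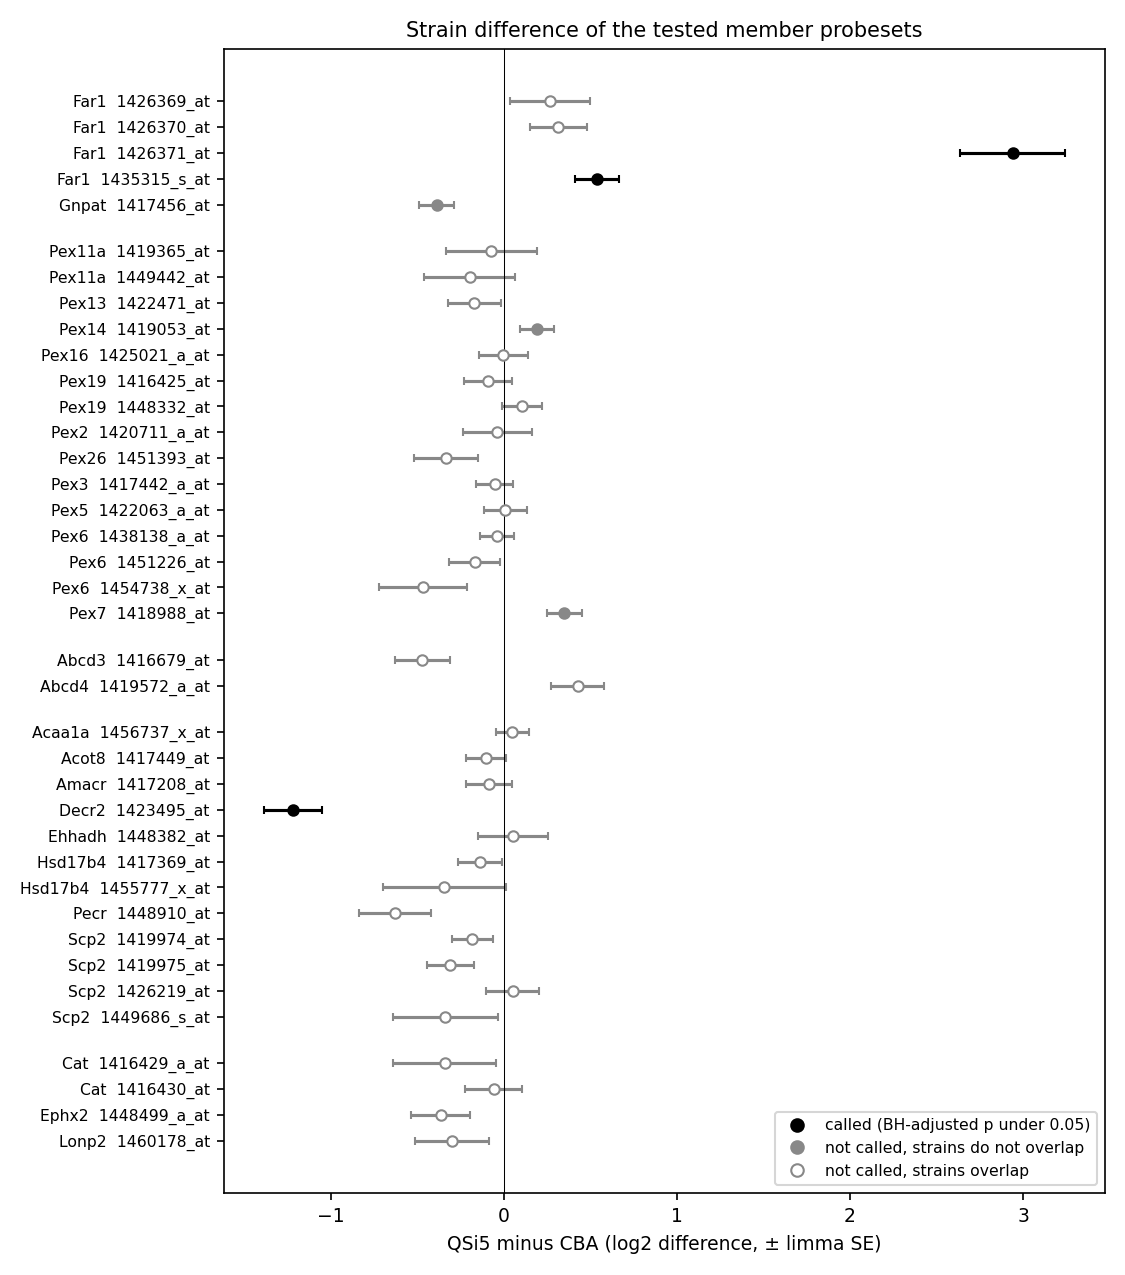
Strain difference of each of the 38 tested probesets, QSi5 minus CBA in log2 units, with bars for limma's SE, grouped by role from ether lipid enzymes at the top to protective enzymes at the bottom. Black points are called, filled grey points are not called but have strains that do not overlap, and open points overlap. Far1 1426371_at lies at 2.94 and Decr2 at -1.22, and the uncalled points lie between -0.63 and 0.43.

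Among the ether lipid enzymes Far1 was higher in QSi5 glands on the called probesets 1426371_at and 1435315_s_at, and Gnpat had a value of -0.39 (SE 0.10, n = 5 mice per strain) that was not called although the strains did not overlap. On 1426371_at the log2 intensities of the QSi5 mice, in replicate order, were 7.39, 7.32, 6.05, 5.96 and 6.00, and those of the CBA mice were 3.64, 4.10, 3.35, 3.45 and 3.49. Every QSi5 mouse lay at least 1.86 above every CBA mouse. The means were 6.54 ± 0.74 (SD, n = 5) and 3.60 ± 0.30 (SD, n = 5), a difference of 2.94 (SE 0.30). The CBA mean of this probeset, 12.1 on the unlogged scale, was below the intensity filter of 20, so that its size is uncertain. The QSi5 mean of 93.2 was 4.66-fold that filter value and 7.67-fold the CBA mean. Within QSi5, the mice on the MOE430A 2.0 chip (replicates 1 and 2) were the bright ones. Split by chip, the strains differed by 3.63 among MOE430A 2.0 arrays and by 2.48 among MOE430 2.0 arrays.

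The other Far1 probesets gave smaller differences of the same sign. On 1435315_s_at the QSi5 mice had 7.15, 6.59, 6.68, 6.71 and 6.88 and the CBA mice 6.48, 6.34, 6.28, 6.05 and 6.16, with no overlap and a gap of 0.11 between the strains. The difference was 0.54 (SE 0.13, n = 5 per strain, 1.45-fold), and by chip it was 0.53 (MOE430 2.0) and 0.56 (MOE430A 2.0). This call was lost with median centring of the arrays, on either chip type alone and when any one of CBA replicates 2, 3, 4 and 5 or QSi5 replicates 1, 3, 4 and 5 was left out, while the difference stayed between 0.45 and 0.59 over all alternatives. On 1426369_at the QSi5 mice had 7.15, 6.90, 6.52, 6.43 and 6.39 and the CBA mice 6.78, 6.66, 6.86, 6.03 and 5.72. These strains overlapped, CBA replicates 4 and 5 being the lowest mice, and the difference was 0.27 (SE 0.23). Probeset 1426370_at gave 0.32 (SE 0.17), also with overlap, from 4.88, 4.09, 4.61, 4.34 and 4.28 in QSi5 and 4.51, 4.02, 3.81, 4.19 and 4.09 in CBA mice. The fifth, 1453550_a_at, was below the filter in both strains (unlogged means 5.24 and 5.10). The probesets above the filter in both strains, 1426369_at and 1435315_s_at, thus gave 1.20-fold and 1.45-fold, and why the probesets differ was not tested. By mean intensity over all arrays 1426369_at is the brightest and stands for the gene in the counts by gene below, while the called 1435315_s_at lies close behind it.

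**Figure D2:**
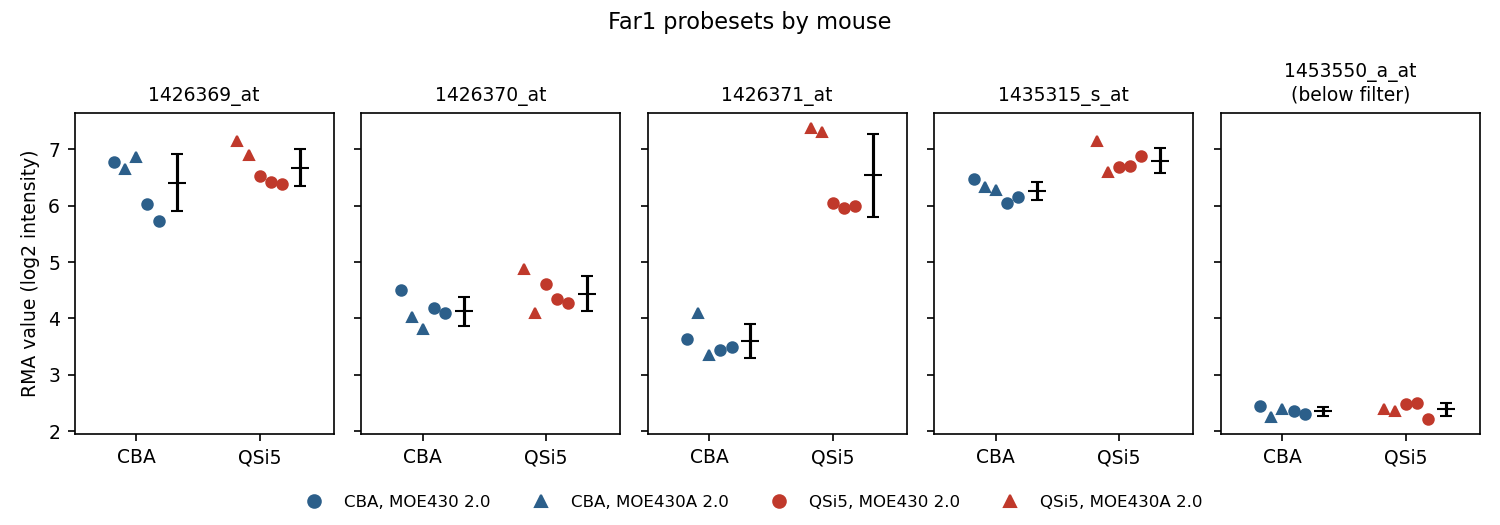
Log2 intensity of the 5 Far1 probesets in each mouse. Blue is CBA, red is QSi5, circles are MOE430 2.0 arrays and triangles MOE430A 2.0 arrays, and the bar beside each strain is its mean ± SD (n = 5). The strains are separated by 1.86 on 1426371_at and by 0.11 on 1435315_s_at and overlap on the others.

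Gnpat was measured by 1 probeset, 1417456_at. Its values were 5.44, 5.30, 5.70, 5.34 and 5.45 in QSi5 mice and 5.79, 5.86, 5.72, 5.94 and 5.86 in CBA mice. The highest QSi5 mouse (replicate 3) lay only 0.02 below the lowest CBA mouse. The difference of -0.39 was close to equal on both chips, -0.37 for MOE430 2.0 and -0.42 for MOE430A 2.0, and it was called in 1 of 22 alternative analyses, the one without QSi5 replicate 3. The genes of the later steps to plasmalogens come from a list written from general knowledge, with earlier results of these arrays known. Of these, 12 of 20 were tested and limma called 0 (1 at an unadjusted p under 0.05). On the brightest probesets the differences ran from -0.48 to 0.34, with a median of -0.03 beside 0.00 for all tested genes. The highest was Tmem189, at 0.34 (SE 0.12), with strains that did not overlap and no call. Dhrs7b stood on the list of other peroxisomal genes instead, at 0.57 (SE 0.15), with overlap and no call.

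The proximal promoters of Far1, Gnpat and Decr2 are shown because Far1 and Decr2 hold the called probesets and Gnpat acts beside Far1. Each runs from 250 bases before to 50 bases after a start site of the RefSeq annotation of GRCm38.p6, which is the C57BL/6J sequence and that of neither strain. Capitals mark CCAAT (the CCAAT box), the GC box GGGCGG, the E-box with the letters CACGTG and the nuclear receptor core element AGGTCA. All were searched on both strands, and no hits overlapped in these windows. Far1 lies at chr7:113513584-113513883 on the plus strand, Gnpat at chr8:124862783-124863082 on the plus strand and Decr2 at chr17:26090115-26090414 on the minus strand.
Far1: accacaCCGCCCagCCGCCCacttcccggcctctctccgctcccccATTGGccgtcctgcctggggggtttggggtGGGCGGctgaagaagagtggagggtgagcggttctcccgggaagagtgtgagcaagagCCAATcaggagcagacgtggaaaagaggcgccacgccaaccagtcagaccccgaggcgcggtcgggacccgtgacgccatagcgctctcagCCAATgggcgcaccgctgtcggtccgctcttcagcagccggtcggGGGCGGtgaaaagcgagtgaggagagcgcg
Gnpat: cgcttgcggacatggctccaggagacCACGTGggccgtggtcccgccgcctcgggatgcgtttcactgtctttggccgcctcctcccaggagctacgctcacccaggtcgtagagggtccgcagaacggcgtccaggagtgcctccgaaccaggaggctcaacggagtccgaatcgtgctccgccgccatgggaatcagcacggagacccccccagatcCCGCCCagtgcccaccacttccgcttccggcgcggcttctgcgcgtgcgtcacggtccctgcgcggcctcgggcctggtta
Decr2: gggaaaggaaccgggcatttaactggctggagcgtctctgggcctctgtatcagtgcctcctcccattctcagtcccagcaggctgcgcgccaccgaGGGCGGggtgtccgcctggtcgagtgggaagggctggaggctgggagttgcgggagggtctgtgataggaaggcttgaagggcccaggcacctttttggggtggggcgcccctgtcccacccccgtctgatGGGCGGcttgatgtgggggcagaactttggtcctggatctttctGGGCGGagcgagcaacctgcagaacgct
The Far1 window holds 3 CCAAT matches and 4 GC boxes, the Gnpat window 1 GC box and 1 E-box, and the Decr2 window 3 GC boxes. Of 32851 windows of the same length in the table, 37.4% hold a CCAAT (3.37% hold 3 or more), 35.7% a GC box (10.7% hold 3 or more) and 7.15% an E-box. AGGTCA is in 16.3% of all windows, in none of these 3, and in 3 of the 27 member genes that have a window (Cat, Phyh and Scp2). The direct repeat AGGTCANAGGTCA, an exact form of the repeat bound by PPAR and RXR dimers, is in 0.0396% of all windows and in 0 of the 32 windows of members. An exact match is so rare that its absence from 32 windows shows nothing about the members. These letter matches are a description and were not tied to binding.

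Decr2, a peroxisomal dienoyl-CoA reductase that lets unsaturated fatty acids pass through beta oxidation, was lower in QSi5 glands. The QSi5 mice had 5.04, 4.91, 5.55, 5.17 and 4.78 and the CBA mice 6.51, 6.50, 6.48, 5.91 and 6.13. All CBA mice were above all QSi5 mice, by 0.36 at the closest. The means were 5.09 ± 0.29 (SD, n = 5) and 6.31 ± 0.27 (SD, n = 5), a difference of -1.22 (SE 0.17, 2.32-fold lower). By chip it was -1.02 (MOE430 2.0) and -1.52 (MOE430A 2.0), and a fit to the 6 arrays of the former chip did not call it. It was called in the other 21 of 22 alternatives. Decr2 was the 1 member gene of 26 called when each gene stood by its brightest probeset, beside 2.7% of all 7361 tested genes.

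The genes next to Far1 and Decr2 were looked at for differences of their own. Far1 lies on chromosome 7 (GRCm38.p6, 113513719 to 113571506) and Decr2 on chromosome 17 (26081208 to 26090322). Of the 5 nearest tested genes on each side of Far1, 0 of 10 were called by limma on any probeset (2 at an unadjusted p under 0.05 on the brightest), and their brightest probesets ranged from -0.47 (Copb1) to 0.44 (Arntl). Around Decr2 the same count was 0 of 10 (0 at an unadjusted p under 0.05), with differences between -0.28 (Pigq) and 0.15 (Axin1).

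**Figure D3:**
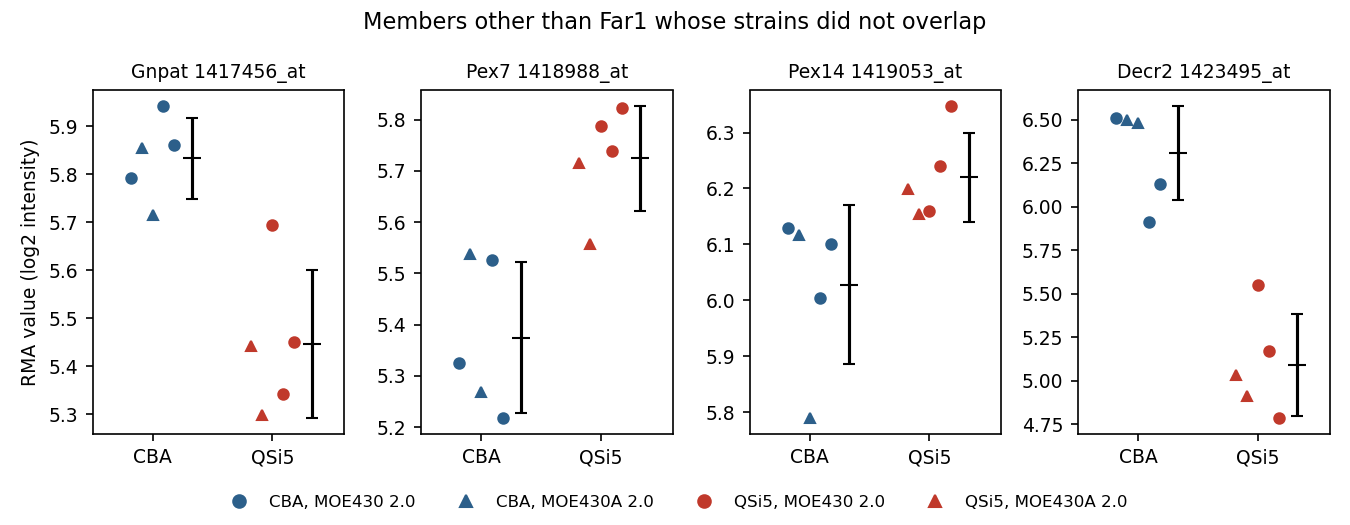
Log2 intensity in each mouse for the members other than Far1 whose strains did not overlap, with mean ± SD (n = 5) beside each strain. Each panel has its own scale. The gap between the strains is 0.36 for Decr2 and 0.02 to 0.03 for Gnpat, Pex7 and Pex14.

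The other enzymes of beta oxidation varied less between the strains. Pecr, which reduces trans-2-enoyl-CoA, had the largest uncalled difference among the members, at -0.63 (SE 0.21), from 5.50, 4.85, 5.57, 5.55 and 5.79 in QSi5 and 5.83, 5.52, 6.31, 6.43 and 6.32 in CBA mice. The strains overlapped, and QSi5 replicate 2 was the lowest mouse. Ehhadh, the L-bifunctional enzyme, gave 0.05 (SE 0.20), and Acaa1a, the thiolase of the final step, gave 0.05 (SE 0.10). Hsd17b4, the D-bifunctional enzyme, had -0.14 (SE 0.13) and -0.34 (SE 0.36) on its probesets. Amacr, the racemase of branched acyl-CoAs, had -0.08 (SE 0.13) and Acot8, an acyl-CoA thioesterase, -0.10 (SE 0.12). Scp2, which encodes a sterol carrier and the thiolase for branched chains, ranged from -0.34 to 0.05 over 4 probesets. Of 8 tested genes in this group, 0 were called higher and 1 lower, with a median of -0.09.

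Among the peroxins, 11 of 12 genes were tested and none was called, with differences from -0.33 to 0.35 on the brightest probesets and a median of -0.05. Pex7, the receptor for proteins with the N-terminal signal, which include Agps, had 5.71, 5.56, 5.79, 5.74 and 5.82 in QSi5 and 5.33, 5.54, 5.27, 5.53 and 5.22 in CBA mice. The strains did not overlap, with 0.02 between them, and the difference was 0.35 (SE 0.10, 1.27-fold). It was called in 1 of 22 alternatives, that with array weights. Pex5, the receptor for the C-terminal signal that most matrix enzymes carry, had 4.25, 4.53, 4.15, 4.34 and 4.40 in QSi5 and 4.36, 4.59, 4.07, 4.48 and 4.12 in CBA mice, a difference of 0.01 (SE 0.13) between strains that overlapped.

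Pex14, the docking protein of the import pore, also separated the strains, with 6.20, 6.15, 6.16, 6.24 and 6.35 in QSi5 and 6.13, 6.12, 5.79, 6.00 and 6.10 in CBA mice. The gap was 0.03, and CBA replicate 3 lay furthest down. The difference of 0.19 (SE 0.10) was not called. Its docking partner Pex13 had -0.17 (SE 0.15). Pex2, a ring-finger ligase of the receptor cycle, had -0.04 (SE 0.20). For Pex6, an ATPase that recycles the receptors, the probesets gave -0.47, -0.17 and -0.04, and for Pex26, its membrane anchor, the value was -0.33 (SE 0.19). Pex3, Pex16 and Pex19, which insert membrane proteins, lay between -0.09 and 0.10 over their tested probesets. Pex11a, which acts in elongation and division of peroxisomes, had -0.20 (SE 0.26) and -0.07 (SE 0.26). Of 10 listed genes of peroxisome division and tethering, 6 were tested and limma called 0 (0 at an unadjusted p under 0.05), with a median of 0.01.

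The transporters differed in sign without a call. Abcd3, the abundant ABC transporter that brings branched and dicarboxylic acyl-CoAs into the organelle, had 8.35, 8.35, 8.15, 7.92 and 8.26 in QSi5 and 8.66, 8.75, 9.19, 8.30 and 8.47 in CBA mice. The strains overlapped by 0.05, through CBA replicate 4, and the difference was -0.47 (SE 0.16). Abcd4, a relative that serves cobalamin export from lysosomes, had 0.43 (SE 0.15). The protective genes all had negative values that were not called. Cat, catalase, gave -0.34 (SE 0.30) and -0.06 (SE 0.17), Ephx2, a soluble epoxide hydrolase, -0.36 (SE 0.17), and Lonp2, the peroxisomal Lon protease, -0.30 (SE 0.21). Without CBA replicate 3 the brightest probeset of Cat gave -0.16 and Lonp2 -0.14. By chip, Ephx2 had -0.08 (MOE430 2.0) and -0.79 (MOE430A 2.0), and the second Cat probeset had -0.29 and 0.29. Over the 26 member genes, 18 differences were negative and 8 positive, with a median of -0.10, beside 49.1% negative and a median of 0.00 over all tested genes. Without CBA replicate 3 these became 17 and 9, with a median of -0.06, and 2 member probesets were called (Far1 1426371_at and Decr2).

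One array stood apart for many of the members. CBA replicate 3 was the highest of the 10 arrays for 12 of 26 member genes (46.2%), where the same array was highest for 19.5% of all tested genes. Its median deviation from each gene's mean over all arrays was 0.33, while those of the other CBA mice lay between -0.01 and 0.03 and those of the QSi5 mice between -0.14 and 0.02. The genes were Pex6, Pex11a, Pex13, Pex16, Pex19, Pex26, Abcd3, Hsd17b4, Acot8, Cat, Ephx2 and Lonp2. They include proteins of the membrane, the matrix and the import machinery, while Pex3, Pex5, Pex14, Abcd4 and Acaa1a were lowest on that array (19.2% of members and 19% of all tested genes). At the other end, QSi5 replicate 4 was the lowest array for 9 of 26 members (34.6%) and for 10.4% of all tested genes.

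The marker genes on these arrays were as follows. Of the luminal markers Muc1 was called higher (0.73, SE 0.15) and Krt8 lower (-0.83, SE 0.16) in QSi5 glands. In CBA replicate 3 the summed intensities were 15586 for adipocyte markers, within the 12308 to 15802 of CBA mice, and 86520 for luminal markers, the lowest of all mice. Such sums weigh the brightest genes most. As a mean log2 deviation per gene, the luminal markers of CBA replicate 3 stood at 0.08, where all arrays ran from -0.16 to 0.13. Its adipocyte markers stood at 0.29 by the same measure, where all arrays ran from -0.33 to 0.37. Its leukocyte markers stood at 0.35 and its myoepithelial markers at -0.27. All arrays ran from -0.60 to 1.03 for leukocyte and from -0.67 to 0.58 for myoepithelial markers. The 1.03 and the -0.67 were those of QSi5 replicate 4. In QSi5 replicate 4 the 6 tested of 13 leukocyte markers summed to 1376, the highest of all mice (681.3 to 1376 in QSi5, 444.8 to 1146 in CBA), and the 6 tested of 7 myoepithelial markers to 1436, the lowest. Among listed markers with a probeset, Cd4, Cd8a, Cd79a, Cd68 and Itgam of the leukocytes and Cidec and Ucp1 of the adipocytes were below the filter. Most of the adipocyte sum came from Cidea and Lpl, which lactating epithelium also expresses, and none of the 6 tested adipocyte markers was called by limma (1 at an unadjusted p under 0.05). Of the other tested adipocyte markers, Adipoq differed by -0.07 (SE 0.30), Retn by -0.11 (SE 0.26) and Lep by 0.09 (SE 0.17). Fabp4 had -0.73 (SE 0.23, 1.66-fold) and -0.85 (SE 0.34) on its probesets. Endothelial markers, 2 of 7 tested, summed to between 43.8 and 59.5 in QSi5 and 57.3 and 64.9 in CBA mice. The part of cell composition in the member values was not tested, and in whole glands fewer cells of a type cannot be told apart from less RNA per cell.

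**Figure D4:**
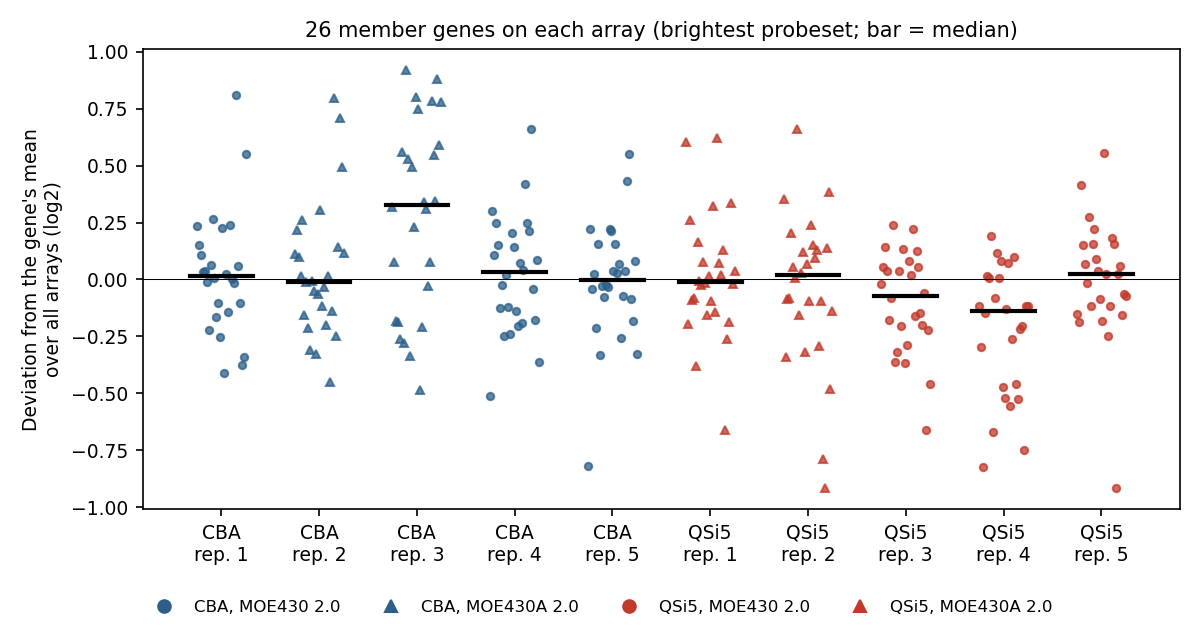
Deviation of each of 26 member genes from its own mean over all arrays (log2), array by array, with the brightest probeset for each gene. Black bars are medians over the genes, blue is CBA, red is QSi5, circles are MOE430 2.0 and triangles MOE430A 2.0 arrays. The bar of CBA replicate 3 is at 0.33, and those of the other arrays lie between -0.14 and 0.03.

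Some members differed between the chip types, a contrast that played no part in choosing them. With strain in the limma fit, 3 of 38 member probesets passed a BH-adjusted p under 0.05, beside 0.526% of all tested probesets, and each was brighter on the MOE430A 2.0 chip. At an unadjusted p under 0.05 in that fit were 9 of 38 members, beside 17.2% of all tested probesets. Cat 1416429_a_at lay between 7.14 and 7.68 on the 4 MOE430A 2.0 arrays and between 6.05 and 6.65 on the 6 MOE430 2.0 arrays, a difference of 0.96 (SE 0.13, adjusted p = 0.0117). Hsd17b4 1455777_x_at differed by 1.12 (SE 0.17, adjusted p = 0.0239), with 6.23 to 6.90 against 4.88 to 5.77. Scp2 1449686_s_at differed by 0.92 (SE 0.16, adjusted p = 0.0333), with 7.69 to 8.38 against 6.57 to 7.45. The chip types did not overlap for any of these. Another probeset of each of these genes did not pass. For Cat 1416430_at the chip difference was 0.12 (SE 0.17, adjusted p = 0.760), for Hsd17b4 1417369_at it was 0.22 (SE 0.12, adjusted p = 0.366), and for Scp2 1426219_at it was -0.31 (SE 0.13, adjusted p = 0.252), all from limma.

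The spread of Cat within strains, an SD of 0.56 that exceeded that of 96.9% of all tested genes, contains this chip difference. The median within-strain SD was 0.26 for the 26 member genes and 0.22 for all tested genes. Pex11a came next at 0.49, and Acaa1a, Pex14, Gnpat and Pex7 were the steadiest, at 0.11 to 0.13. Whether the strain difference itself varied with the chip was tested with the product of strain and chip type in limma. For the members 0 of 38 passed, and 0 of all 11412, while 3 of 38 members and 5.43% of all had an unadjusted p under 0.05. The 3 were Far1 1426371_at, Ephx2 and Scp2 1419974_at. Their strain differences on MOE430A 2.0 minus those on MOE430 2.0 were 1.15 (SE 0.28), -0.72 (SE 0.26) and -0.42 (SE 0.18). With 3 and 2 mice per strain on the chip types, a lack of calls shows little.

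**Figure D5:**
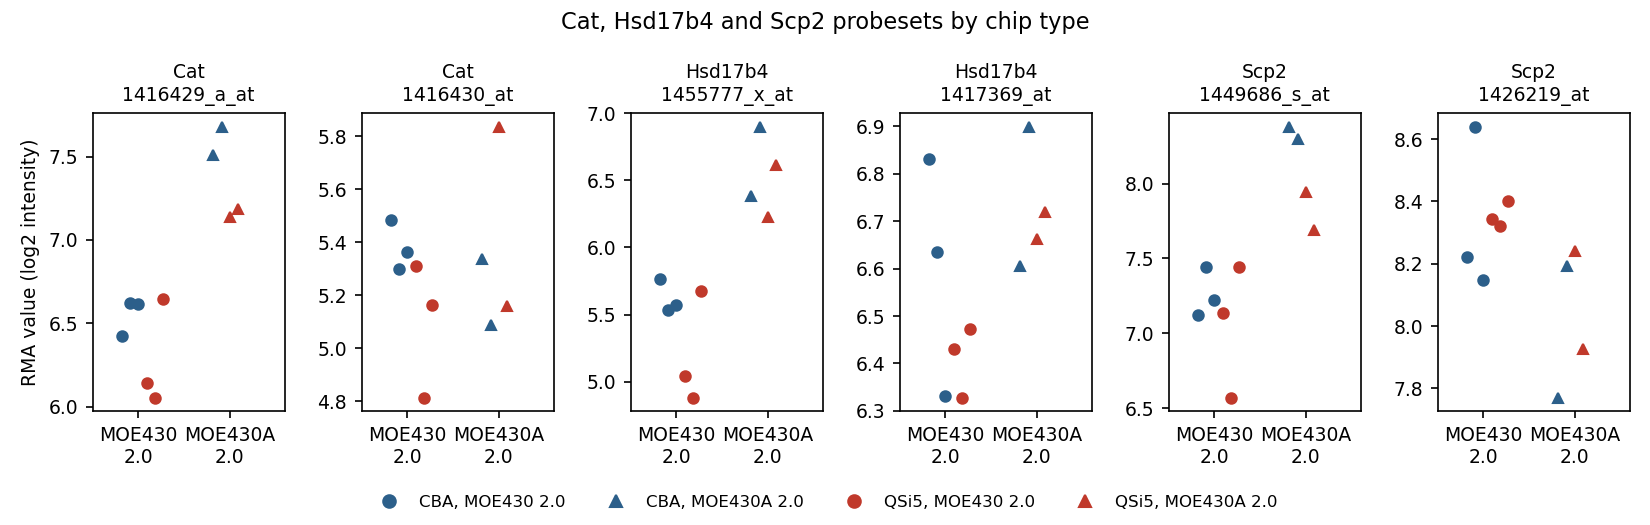
Log2 intensity by chip type for 2 probesets each of Cat, Hsd17b4 and Scp2. Each panel has its own scale, blue is CBA, red is QSi5, circles are MOE430 2.0 and triangles MOE430A 2.0 arrays. The first probeset of each gene separates the chips, by 0.96, 1.12 and 0.92 in the limma fit, and the second does not.

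Beyond the members, a list of 55 other peroxisomal genes was written from general knowledge. Earlier results of these arrays were known by then, so its counts are a description. Of its genes 30 were tested by limma, with 3 called higher in QSi5 glands, 0 lower and 27 not called, beside 2.7% of all tested genes called. The median was -0.01, and 9 genes had an unadjusted p under 0.05. Mgst1, a membrane glutathione transferase of the endoplasmic reticulum, mitochondria and peroxisomes, was higher by 1.08 (SE 0.15, 2.11-fold), with means of 11.95 ± 0.08 in QSi5 and 10.87 ± 0.33 in CBA mice (SD, n = 5). Xdh, the xanthine oxidoreductase that is better known as a structural protein of the milk fat globule, was higher by 0.73 (SE 0.10). Dhrs4, a peroxisomal carbonyl and retinal reductase, was higher by 0.50 (SE 0.12). On these probesets the strains did not overlap. A second probeset of Dhrs4 gave 0.54 (SE 0.21) with overlap and no call. The lowest value of the list, without a call, was that of Acsl4, an acyl-CoA synthetase that prefers arachidonate, at -1.03 (SE 0.30, 2.04-fold), and its other probesets gave -0.81 (SE 0.26) and 0.07 (SE 0.15). The 3 called genes are known for detoxification, milk fat secretion and carbonyl reduction.

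Peroxisome genes are classical targets of the PPAR nuclear receptors. Of 14 genes of PPARs and their partners, 8 were tested, 0 called higher and 1 lower, beside 2.7% of all tested genes called. The lower one was Med1, the mediator subunit that binds PPARs, at -1.60 (SE 0.16, 3.04-fold) on 1421907_at, where the means were 4.62 ± 0.17 in QSi5 and 6.22 ± 0.33 in CBA mice (SD, n = 5). Its other probeset, 1421906_at, gave 0.10 (SE 0.13). Ppara had -0.02 (SE 0.11) and Pparg 0.19 (SE 0.10), neither of them called.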

How the data were processed

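RNA of 10 inguinal glands (5 mice per strain, lactation day 9) was hybridised to 10 arrays, of 2 chip types by the sample records and of MOE430A 2.0 alone by the methods of the study. The log2 values deposited by the authors came from RMA in the affy package, with quantile normalization over the 22690 probesets common to both chip types, and versions are not given in the sources used here. Groups were the strains of the sample titles, and 0 columns lacked a sample. After 64 control probesets were set aside, those with an unlogged strain mean (2 to the power of the mean log2 value) above 20 in at least 1 strain were kept, which follows the methods of the study and left 11412.

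The strain difference was estimated with limma 3.58.1 under R 4.3.3, two-sided and without covariates (functions lmFit and eBayes), with BH adjustment over all kept probesets, and the fit was tested on simulated data. All 54 member probesets matched RefSeq by Entrez identifier with the same symbol. The members and the gene lists were chosen with earlier results of these data known. Given mouse by mouse are Far1, Gnpat, called or non-overlapping members, the import receptors and, chosen after their values were seen, Pecr and Abcd3. Of the other lists, called genes are named, as are Acsl4, Dhrs7b, Tmem189, Ppara, Pparg and markers, also chosen after their values were seen. Agps is named without a value. Alternatives changed the filter, the scaling, the handling of chip type, replicate numbers, array weights and ambiguous probesets, or left out each mouse in turn. The number of arrays limits the precision.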

Additional observations from a re-analysis of the deposited data

Results flagged for a closer look

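Among 78 checks for a mouse far from the other 4 of its strain, 4 were flagged. A share of about 1 in 20 holds for independent checks. These checks share arrays and genes, so their count cannot be set against that share. All 4 flags concern CBA replicate 3. Pex11a 1449442_at was 8.30 there against 7.13 to 7.44 in the other CBA mice. Pex16 1425021_a_at was 6.72 against 5.98 to 6.19. Pex19 1448332_at was 4.15, below the 4.30 to 4.32 of the others. The median deviation of the member genes was 0.33 against -0.01 to 0.03. The cause was not tested.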

How the results depend on the processing

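Over 22 alternatives the direction of no called member probeset reversed, and of 813 differences 808 moved by less than 1 within-strain SD. Far1 1426371_at was called in all 22, Far1 1435315_s_at in 9 of 21 and Decr2 in 21 of 22. On the MOE430 2.0 arrays alone, 1 member probeset and 0 member genes were called, with 146 probesets in all. On the MOE430A 2.0 arrays alone, 65 probesets in all and 0 other peroxisomal genes were called. The smaller number of arrays is part of the construction of both. With chip type as a block the count of other peroxisomal genes was 5. Member genes called were 2 with array weights, with the replicate block and when any probeset of a gene counted, against 1 in the analysis used throughout. Leaving out each mouse gave 2 to 3 member probesets, 1 to 2 member genes, 2 to 3 other peroxisomal genes and 215 to 415 probesets in all (215 without QSi5 replicate 3, 221 without QSi5 replicate 5). Without CBA replicate 1 or QSi5 replicate 2 the second gene was Far1, since 1435315_s_at then became its brightest probeset in place of 1426369_at, which was called in 0 of 22 alternatives, and without QSi5 replicate 3 it was Gnpat. The sample titles give replicate numbers without naming a pairing. Correlations of same-numbered mice ran from -0.37 to 0.29, and with so few mice they cannot decide whether these were paired. The replicate block gave 3 member probesets and 260 in all, with Pecr called and Far1 1435315_s_at not called. The intensity filter computed as the mean of unlogged values, chosen after seeing the data, gave 336 calls, as did the analysis used throughout. The causes of the other changes were not tested.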
